A study of Mus musculus with 7 samples.

Results

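Genes that direct melanocyte and neural crest identity were described here, 10 in number and all among the 19938 genes measured: Mitf, Sox10, Pax3, Tfap2a, Tfap2b, Tfap2c, Lef1, Sox9, Foxd3 and Kit. They were chosen by name, as lineage transcription factors, members of the AP-2 family and the Kit receptor. No measured value entered the rule, but members and lists were chosen with earlier results of these data known. Expression was measured on single-colour Affymetrix Mouse Gene 1.0 ST arrays, 1 per sample, as log2 values. The MDEC sample held mouse dermal endothelial cells, grown in DMEM with an endothelial supplement and labelled PECAM positive (n = 1). The other samples were B16F10, a pigmented mouse melanoma line, grown in DMEM with serum: the PECAM1+ clones A2, A3, A4 and A5 (n = 4), the PECAM1− clone A1 and the PECAM1− parental cells, which together formed the PECAM1− group (n = 2). Each clone is a line of its own, whereas the parental cells are a population, and no allele or added agent was named for any sample. Independent origin or separate culture of the clones is not stated in the labels, and the p-values therefore cover the sample-to-sample spread alone, part of which may be technical.

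The labels were checked on marker genes before the results. Pecam1, the adhesion receptor that sorts the groups, was at 11.72 in MDEC, 11.00 to 11.07 in the PECAM1+ clones, 5.43 in clone A1 and 5.27 in parental cells. Of 15 endothelial markers, 12 were at least 4-fold higher in MDEC than in B16F10 and outside the B16F10 range, led by Cdh5 (VE-cadherin) at 12.41 in MDEC against 4.86 to 5.08 in B16F10. The von Willebrand gene Vwf, Sox17 and Cldn5 were not among them, at 6.41, 5.47 and 7.82 in MDEC. By direction alone, 14 of the 15 were higher in MDEC and 1 lower. Of 8 melanocyte markers, 7 were at least 4-fold lower in MDEC and 0 higher. Of the other cell types, 0 of 10 keratinocyte markers, 1 of 12 fibroblast and mural markers (Thy1, higher by 4.18) and 2 of 7 measured Schwann cell markers (Cdh19 and Mbp, lower) differed in MDEC by this rule. Clone A1 stood apart from the other B16F10 arrays, with 4089 genes (20.5%) called between it and the PECAM1+ clones, so the regulators are also compared with clone A1 and with parental cells alone. Array medians over all probe sets lay between 6.12 and 6.18, and no detection calls were given, so whether a gene near or below that level was expressed is not known.

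MITF is the basic helix-loop-helix factor that switches on pigment genes in melanocytes by binding E-box motifs in their promoters. SOX10 and PAX3 are neural crest factors that act together on the melanocyte promoter of Mitf, the most downstream of its starts, and LEF1, the nuclear partner of beta-catenin, and CREB also act there. AP-2 factors are a family of related DNA-binding proteins of neural crest and epidermis, and KIT is the receptor for stem cell factor, which melanoblasts need to migrate and survive.

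The 10 genes fell into 3 patterns over the 7 arrays. Mitf, Sox10, Pax3 and Tfap2a were high in every B16F10 array and at least 7.58-fold lower in MDEC. Kit had the opposite pattern and was 29.8-fold higher in MDEC on the deposited scale. For Kit the B16F10 level and for Tfap2a the MDEC level lay below every array median, and with background unknown their folds are not exact. For Tfap2b, Tfap2c, Lef1, Sox9 and Foxd3, MDEC differed from B16F10 by −0.25 to 0.21 log2 units. Every value of Tfap2b, Tfap2c, Lef1 and Foxd3 lay below all array medians, so whether these genes were expressed is not known. Sox9, at 6.44 in MDEC and 6.57 to 6.84 in B16F10, lay above them but near the medians over genes, 6.601 to 6.685. Whether Sox9 was expressed is therefore not known either. The lone MDEC array was read by a rule of size: 4-fold or more away from B16F10, taken as the average of the PECAM1+ and PECAM1− means, and beyond all 6 B16F10 arrays. By this rule 4 of the 10 genes were lower and 1 was higher, where 2.01% and 2.72% of all genes were (4.73% in either direction). MDEC had 1 array and a culture medium of its own, so this difference has no replicate check, and cell type and medium cannot be told apart. In these RNA pools, fewer cells of a type and less RNA per cell cannot be told apart either.

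**Figure D1:**
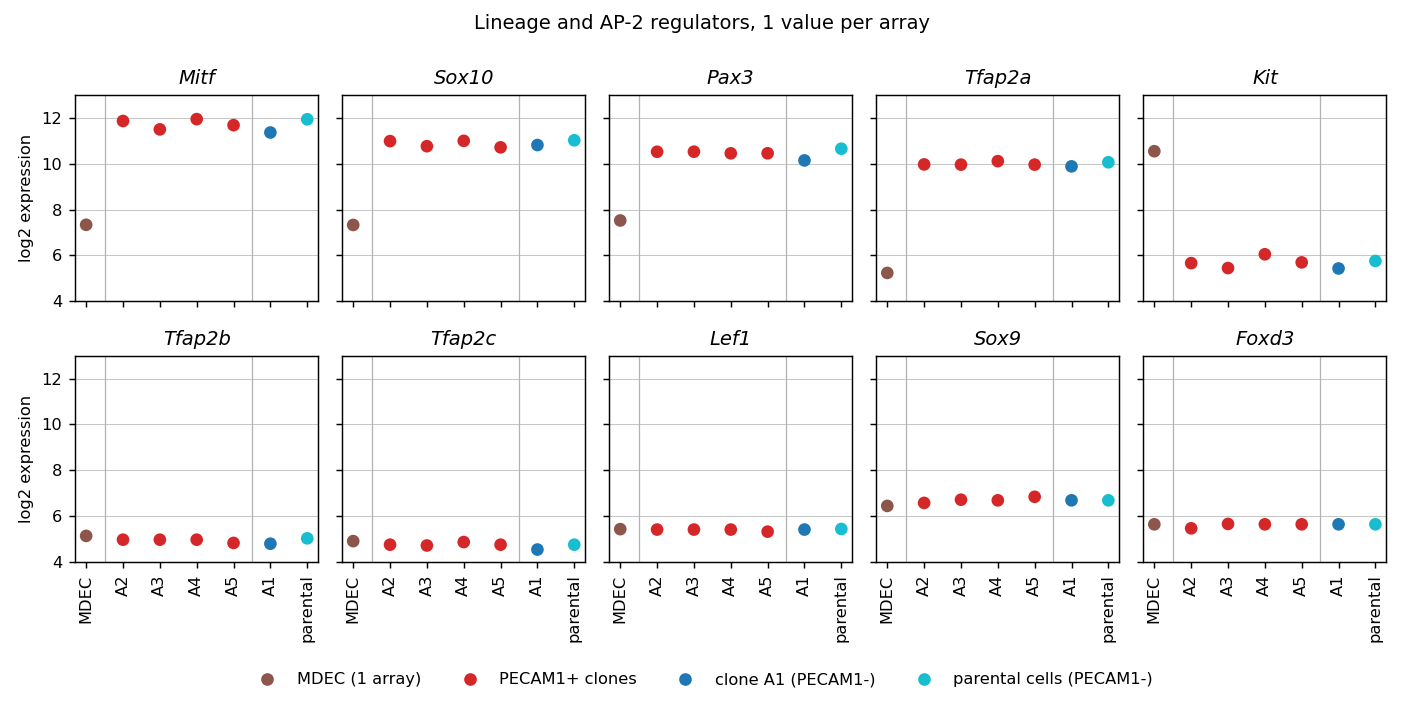
Log2 expression of the 10 regulators on each of the 7 arrays (y axis, log2 units, same scale in each panel; x axis, arrays; 1 point per array; brown, MDEC; red, PECAM1+ clones; blue, clone A1; light blue, parental cells). Mitf, Sox10, Pax3 and Tfap2a drop in MDEC, Kit peaks there at 10.55, and the lower row stays nearly level.

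The PECAM1+ clones did not differ detectably from the PECAM1− samples in any of the 10 regulators. By limma (adjusted p under 0.05 over all genes), 0 of the 10 passed in this comparison, where 2 of 19938 genes did (0.01%, with 1 higher and 1 lower, 0.00502% each), and 0 of the 10 had an unadjusted p under 0.05, against 1830 genes in all (9.18%). The values of the PECAM1+ clones and the PECAM1− samples overlapped for all 10 genes. Of all genes, 16.4% did not overlap (7.73% higher and 8.68% lower in the PECAM1+ clones), a share at which few of 10 genes would be counted. Against parental cells alone 0 of the 10 passed as well, where again 0.01% of all genes did, 0.00502% in each direction. The median difference of the 10 was 0.02 log2 units, and that of all genes 0.00. The widest 95% interval was that of Mitf, from −0.41 to 0.60, and the narrowest that of Lef1, from −0.14 to 0.07. These intervals hold for 1 gene at a time. With 4 and 2 arrays, differences well beyond them can also miss the threshold over all genes, as that of Pmp22 did. The summed linear level of the 7 Schwann cell markers was 5029 to 8074 in the PECAM1+ clones and 3271 to 3813 in the PECAM1− samples, and its part in any result was not tested. Without Pmp22 the sum of the other 6 was 3070 to 3486 in the PECAM1+ clones and 2785 to 3108 in the PECAM1− samples, so the groups overlapped. Pmp22, a myelin gene, differed by 2.39 ± 0.37 (SE) and did not pass (limma adjusted p = 0.312), and of the 7 markers 4 were higher and 3 lower, with a median of 0.02.

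**Figure D2:**
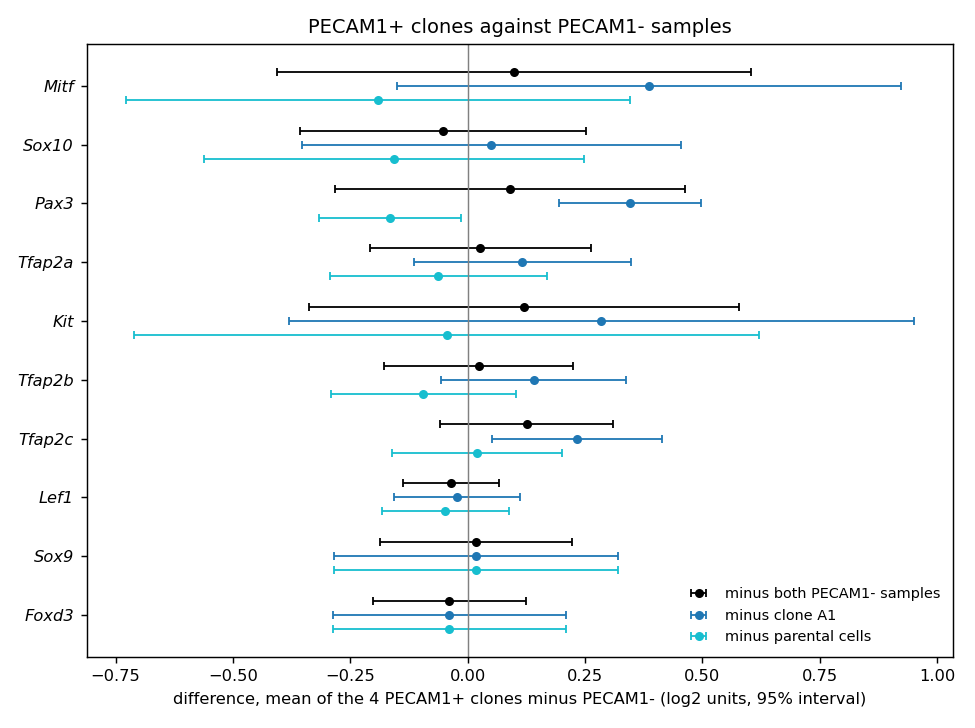
Difference in log2 units between the mean of the 4 PECAM1+ clones and the PECAM1− samples for each regulator (points, limma estimate; bars, 95% interval; black, minus both PECAM1− samples; blue, minus clone A1; light blue, minus parental cells). The 2 single-sample comparisons share the clones. For Pax3 they fall on opposite sides of 0, at 0.35 from clone A1 and −0.17 from parental cells.

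Mitf was the regulator with the widest spread between B16F10 arrays apart from Kit. Its log2 level was 7.34 in MDEC, 11.87, 11.50, 11.95 and 11.69 in the PECAM1+ clones A2, A3, A4 and A5, 11.37 in clone A1 and 11.94 in parental cells. Clone A4, parental cells and A2 were the highest and clone A1 the lowest B16F10 sample, but no gap between neighbours in that order (largest 0.18, between A5 and A3) exceeded the SD of the PECAM1+ clones of 0.20. The PECAM1+ clones averaged 11.75 ± 0.20 (SD, n = 4) and the PECAM1− samples 11.65 ± 0.41 (SD, n = 2), which differed by 0.10 ± 0.20 (SE; limma adjusted p = 0.853). The difference was 0.39 from clone A1 alone (limma adjusted p = 0.269) and −0.19 from parental cells alone (limma adjusted p = 0.890). MDEC differed from B16F10 by −4.37, which is 20.6-fold lower. A second probe set of Mitf had 3.41 in MDEC, 5.96, 4.91, 6.27 and 5.21 in A2 to A5, 5.21 in clone A1 and 5.48 in parental cells. Both probe sets were highest in A4 and lowest in MDEC, but their B16F10 ranges differed, 0.58 for the first and 1.36 for the second. MDEC differed by −2.05 on the second. Apart from A4, every value of the second lay below all array medians, so its differences are not exact.

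The promoter of the most downstream Mitf start and those of 3 pigment genes that MITF binds are shown because Mitf and these genes were all lower in MDEC. Sequences are RefSeq promoters of GRCm38.p6, 250 bases before to 50 after the start, written 5′ to 3′ on the gene's strand, with motif matches on either strand in capitals. The motifs searched were the E-boxes CATGTG and CACGTG, GCCNNNGGC for AP-2, ACAAAG and ACAATG for SOX factors, TGACGTCA for the cAMP response element and TCAAAG for LEF/TCF, and no matches overlapped in the sequences shown.
Mitf, chr6:97991533-97991832, plus strand: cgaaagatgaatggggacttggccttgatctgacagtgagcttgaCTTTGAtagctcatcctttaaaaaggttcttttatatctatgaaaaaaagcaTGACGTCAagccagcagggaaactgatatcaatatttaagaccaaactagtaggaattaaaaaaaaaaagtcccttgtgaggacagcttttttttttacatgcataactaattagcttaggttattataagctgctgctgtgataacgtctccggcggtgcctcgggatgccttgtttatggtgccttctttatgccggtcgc
Tyr, chr7:87493463-87493762, minus strand: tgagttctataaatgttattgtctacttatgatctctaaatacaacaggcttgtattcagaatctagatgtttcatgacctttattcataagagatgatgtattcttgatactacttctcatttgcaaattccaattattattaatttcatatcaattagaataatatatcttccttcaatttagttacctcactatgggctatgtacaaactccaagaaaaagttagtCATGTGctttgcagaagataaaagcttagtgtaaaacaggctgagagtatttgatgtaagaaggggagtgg
Tyrp1, chr4:80833963-80834262, plus strand: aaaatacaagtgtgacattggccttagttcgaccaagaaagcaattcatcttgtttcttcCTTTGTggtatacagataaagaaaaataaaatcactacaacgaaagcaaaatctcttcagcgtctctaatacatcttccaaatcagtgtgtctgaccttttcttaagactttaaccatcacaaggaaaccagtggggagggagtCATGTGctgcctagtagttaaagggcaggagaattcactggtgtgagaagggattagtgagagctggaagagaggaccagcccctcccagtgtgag
Dct, chr14:118052197-118052496, minus strand: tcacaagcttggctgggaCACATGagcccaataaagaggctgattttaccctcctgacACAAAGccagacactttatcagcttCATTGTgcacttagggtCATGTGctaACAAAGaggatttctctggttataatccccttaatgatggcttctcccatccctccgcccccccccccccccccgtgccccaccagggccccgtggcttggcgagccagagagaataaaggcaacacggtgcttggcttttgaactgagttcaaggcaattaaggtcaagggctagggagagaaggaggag
Positions are those of the first base of a match, counted from the start, with negative values before it. The Mitf window held a cAMP response element match at −153 and a LEF/TCF match at −205. It held no match to the E-box, AP-2 or SOX motifs searched. CATGTG lay at −21 in Tyr, −46 in Tyrp1 and −150 in Dct, and Dct had a further match on the other strand at −232. Of 32851 promoter windows in the table, 14.2% held CATGTG, 7.15% CACGTG, 18.7% ACAAAG, 12.6% ACAATG, 16.6% GCCNNNGGC and 1.79% TGACGTCA, and 5257 windows held TCAAAG. The table held promoters for 6 of the 10 regulators and 4 of the 8 melanocyte markers, and a match is a description of letters, not a measured site.

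**Figure D3:**
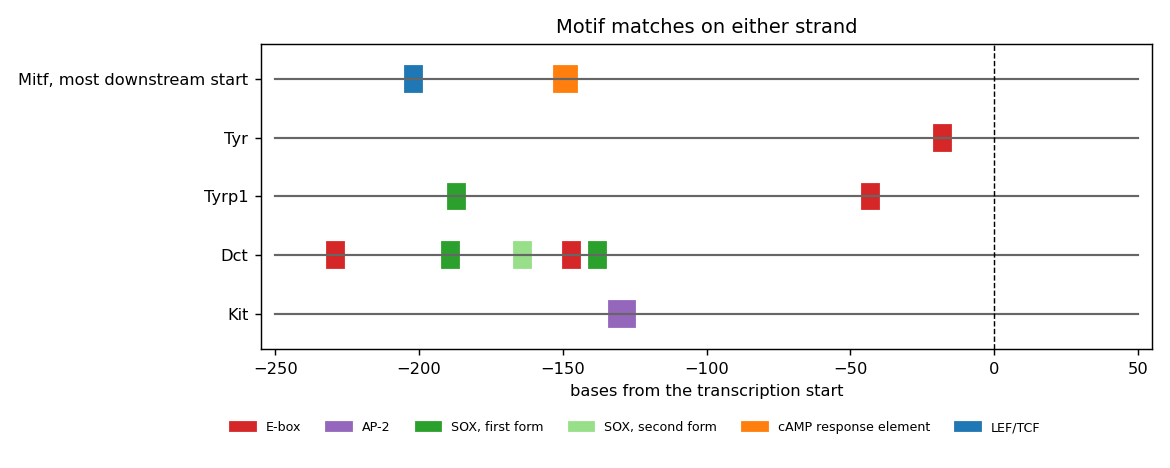
Motif matches in 5 promoter windows (x axis, bases from the transcription start, dashed line; 1 row per promoter; coloured blocks, matches on either strand). An E-box match lies in the Tyr, Tyrp1 and Dct windows, the Mitf window holds a cAMP response element and a LEF/TCF match, and the Kit window an AP-2 match.

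Sox10 stayed within 0.31 log2 units over the B16F10 arrays. It was at 7.33 in MDEC, 10.99, 10.77, 11.00 and 10.72 in clones A2 to A5, 10.82 in clone A1 and 11.03 in parental cells. The PECAM1+ clones lay on both sides of clone A1, and parental cells were the highest. Their difference from the PECAM1− samples was −0.05 ± 0.12 (SE), with means of 10.87 ± 0.15 (SD, n = 4) in PECAM1+ clones and 10.92 ± 0.15 (SD, n = 2) in PECAM1− samples (limma adjusted p = 0.872). From clone A1 alone the clones differed by 0.05 (limma adjusted p = 0.888) and from parental cells alone by −0.16 (limma adjusted p = 0.853). MDEC differed by −3.57, or 11.8-fold lower.

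Pax3 was the regulator that varied least among the PECAM1+ clones and the only one of the 10 called by limma in any comparison. It was at 7.53 in MDEC, 10.53, 10.53, 10.46 and 10.46 in clones A2 to A5, 10.15 in clone A1 and 10.66 in parental cells. All 4 PECAM1+ clones lay between the PECAM1− samples, above clone A1 and below parental cells, and the gap of 0.31 between A4 and A1 was far larger than the SD of the clones of 0.04. Pax3 was higher in the PECAM1+ clones than in clone A1 by 0.35 ± 0.05 (SE), with a limma adjusted p of 0.0242, where the lone A1 array is assumed to vary like the clones. In that comparison 1 of the 10 regulators was called, and 20.5% of all genes were (9.33% as higher and 11.2% as lower), so the share of called regulators is not above the background. The call was lost without clone A2 (adjusted p = 0.0538), A3 (0.0662) or A5 (0.0640) and kept without A4 (0.0406), with differences from 0.33 to 0.36. Against parental cells the difference was −0.17 ± 0.05 (SE), with an unadjusted p of 0.0379 that did not pass (limma adjusted p = 0.329), and against both PECAM1− samples it was 0.09 ± 0.15 (SE; limma adjusted p = 0.815). MDEC differed by −2.92, or 7.58-fold lower.

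Tfap2a, which encodes AP-2 alpha, was past the rule of size as lower in MDEC. It was at 5.24 in MDEC, 9.97, 9.96, 10.12 and 9.96 in clones A2 to A5, 9.89 in clone A1 and 10.07 in parental cells. The 6 B16F10 values were close together, with A4 and parental cells highest and A1 lowest, and MDEC differed from them by −4.75, which is 27.0-fold lower on the deposited scale. The PECAM1+ clones and the PECAM1− samples averaged 10.00 ± 0.07 (SD, n = 4) and 9.98 ± 0.13 (SD, n = 2), and the 95% interval of the difference ran from −0.21 to 0.26 (limma adjusted p = 0.922). The difference was 0.12 from clone A1 alone (limma adjusted p = 0.451) and −0.06 from parental cells alone (limma adjusted p = 0.958).

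The paralogs Tfap2b and Tfap2c, for AP-2 beta and AP-2 gamma, were not higher in B16F10 than in MDEC. Tfap2b was at 5.13 in MDEC, 4.96, 4.96, 4.96 and 4.82 in clones A2 to A5, 4.79 in clone A1 and 5.02 in parental cells. Tfap2c was at 4.90 in MDEC, 4.75, 4.71, 4.86 and 4.75 in A2 to A5, 4.53 in clone A1 and 4.75 in parental cells. For both genes MDEC was the highest and clone A1 the lowest array, by margins of 0.21 and 0.20 log2 units between MDEC and the B16F10 mean. Tfap2c was 0.23 ± 0.07 (SE) higher in the PECAM1+ clones than in clone A1, which did not pass, although it passed without clone A4 (difference 0.20). Tfap2b passed against clone A1 without A5 (difference 0.18). Clones A2, A3 and A4 then shared an identical deposited value of 4.96, so that pass rests on ties that leave no spread among them.

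The other AP-2 genes and cofactors were taken from a list of 10 that also holds the 3 members above. In MDEC, 3 were lower by the rule of size and 0 higher, where 4.73% of all genes passed: Tfap2a, Kctd15 (−2.40) and Kctd1 (−2.04), the last 2 encoding KCTD proteins that inhibit AP-2 alpha. Between the PECAM1+ clones and the PECAM1− samples 0 of 10 passed, with a median difference of 0.00. Against clone A1 alone Kctd1 fell by 1.19 ± 0.16 (SE; limma adjusted p = 0.0170), the 1 call among the 10 (10.0%), below the 20.5% of all genes called there. Cited1, a nuclear cofactor first described in melanocytes, was the most variable of the list. Its level was 7.14 in MDEC, 8.54, 8.32, 10.25 and 8.50 in clones A2 to A5, 10.96 in clone A1 and 7.75 in parental cells, so A1 and A4 stood above the other arrays irrespective of PECAM status (difference −0.45 ± 1.02 (SE), limma adjusted p = 0.868).

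Lef1, Sox9 and Foxd3 did not pass the rule of size in MDEC. Lef1 was at 5.42 in MDEC, 5.41, 5.41, 5.41 and 5.31 in clones A2 to A5, 5.41 in clone A1 and 5.43 in parental cells. Sox9, a neural crest factor of the same family as Sox10, was at 6.44 in MDEC, 6.57, 6.71, 6.68 and 6.84 in A2 to A5, and 6.68 in both clone A1 and parental cells. Foxd3, a repressor of early neural crest that holds back Mitf in bird and fish embryos, was at 5.63 in MDEC, 5.46, 5.65, 5.63 and 5.63 in A2 to A5, and 5.63 in both clone A1 and parental cells. MDEC differed from the B16F10 mean by 0.02 for Lef1, −0.25 for Sox9 and 0.02 for Foxd3. It lay below all 6 B16F10 arrays for Sox9, by 0.13 against a clone SD of 0.11, and inside their range for Lef1 and Foxd3. The deposited value of Foxd3 was identical in 5 of the 7 arrays and that of Lef1 in 4, so their spread rests on few distinct values. Of all genes, 28.1% had the same value in at least 3 of the 6 B16F10 arrays, and 4 of the 10 regulators did. Their limma adjusted p values against the PECAM1− samples were 0.731 for Lef1, 0.945 for Sox9 and 0.815 for Foxd3. Against clone A1 alone and parental cells alone their differences lay between −0.05 and 0.02, with limma adjusted p of at least 0.853.

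Kit was the 1 regulator past the rule of size in the direction of MDEC. It was at 10.55 in MDEC, 5.66, 5.45, 6.05 and 5.70 in clones A2 to A5, 5.43 in clone A1 and 5.76 in parental cells. The MDEC value lay 4.50 log2 units above the highest B16F10 array, clone A4, and 4.89 above the B16F10 mean. Among the B16F10 arrays the gap between A4 and parental cells, 0.29, was the only one above the SD of the PECAM1+ clones of 0.25. The PECAM1+ clones averaged 5.71 ± 0.25 (SD, n = 4) and the PECAM1− samples 5.59 ± 0.23 (SD, n = 2), a difference of 0.12 ± 0.18 (SE; limma adjusted p = 0.800). It was 0.28 from clone A1 alone (limma adjusted p = 0.534) and −0.04 from parental cells alone (limma adjusted p = 0.999). Kit is also a marker of mast cells. The other 10 mast cell markers had a summed linear level of 459 in MDEC, 269 to 285 in the PECAM1+ clones and 272 to 286 in the PECAM1− samples, and 0 of them passed the rule of size. Gata2, which endothelial cells also express, was at 8.06 in MDEC and 6.20 to 6.66 in B16F10. The mast cell proteases and receptor were level, with Cpa3 at 4.22 in MDEC and 4.15 to 4.22 in B16F10, Tpsb2 at 5.37 in MDEC and 5.24 to 5.45 in B16F10, and Fcer1a at 3.88 in MDEC and 3.76 to 3.87 in B16F10.

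The Kit promoter is shown because AP-2 alpha is known to activate KIT in human melanoma cells, while Tfap2a and Kit were high in opposite cell types here. The sequence is the RefSeq window of the more upstream of 2 starts on GRCm38.p6, with the AP-2 match in capitals, at −134. This motif was held by 16.6% of all promoter windows, and a link between Tfap2a and Kit was not tested.
Kit, chr5:75574737-75575036, plus strand: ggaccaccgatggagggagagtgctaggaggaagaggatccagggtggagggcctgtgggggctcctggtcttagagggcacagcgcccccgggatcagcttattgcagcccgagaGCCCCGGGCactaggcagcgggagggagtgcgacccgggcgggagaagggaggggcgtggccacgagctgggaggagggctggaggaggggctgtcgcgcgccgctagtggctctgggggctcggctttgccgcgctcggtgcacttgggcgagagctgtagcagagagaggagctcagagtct

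Kit pathway genes past the rule of size in MDEC made up 8% of the list, Kit included, beside 4.73% of all genes. Of 25 measured genes of ligand, adaptors and feedback inhibitors, 2 were higher by this rule and 0 lower. These were Kit and the ubiquitin ligase gene Cblb (2.39). The median of the list was 0.12. The gene of the ligand, Kitl, was at 5.70 in MDEC and 4.16 to 4.34 in B16F10, a difference of 1.48 that misses the rule. Between the PECAM1+ clones and the PECAM1− samples 0 of 25 passed, and the groups did not overlap for 8 (32.0%, against 16.4% of all genes), among them 3 Sprouty genes, which encode inhibitors of receptor tyrosine kinase signalling. Spry1 was higher by 0.74 ± 0.12 (SE), Spry4 by 0.52 ± 0.17, and Spry2 differed by −0.75 ± 0.25, with limma adjusted p from 0.316 to 0.472. Against clone A1, 7 of 25 passed, 3 as higher and 4 as lower, which is 28.0% beside 20.5% of all genes. These were Spry1 (0.85), Spry4 (0.81) and the phosphatase gene Dusp6 (0.79) as higher, and Spry2 (−1.20), Cblb (−0.95), Gab2 (−0.78) and Pik3ca (−0.55) as lower.

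Other receptors of melanocytes differed in MDEC in both directions. Of 7 measured, 2 were lower in MDEC, the melanocortin receptor gene Mc1r (−4.14) and the neuregulin receptor gene Erbb3 (−3.95), and 2 were higher, the endothelin receptor gene Ednrb (4.52) and Fgfr1 (4.28), where 2.01% of all genes were lower and 2.72% higher. Between the PECAM1+ clones and the PECAM1− samples 0 of 7 passed, and likewise 0 of 7 against clone A1, where 20.5% of all genes passed.

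**Figure D4:**
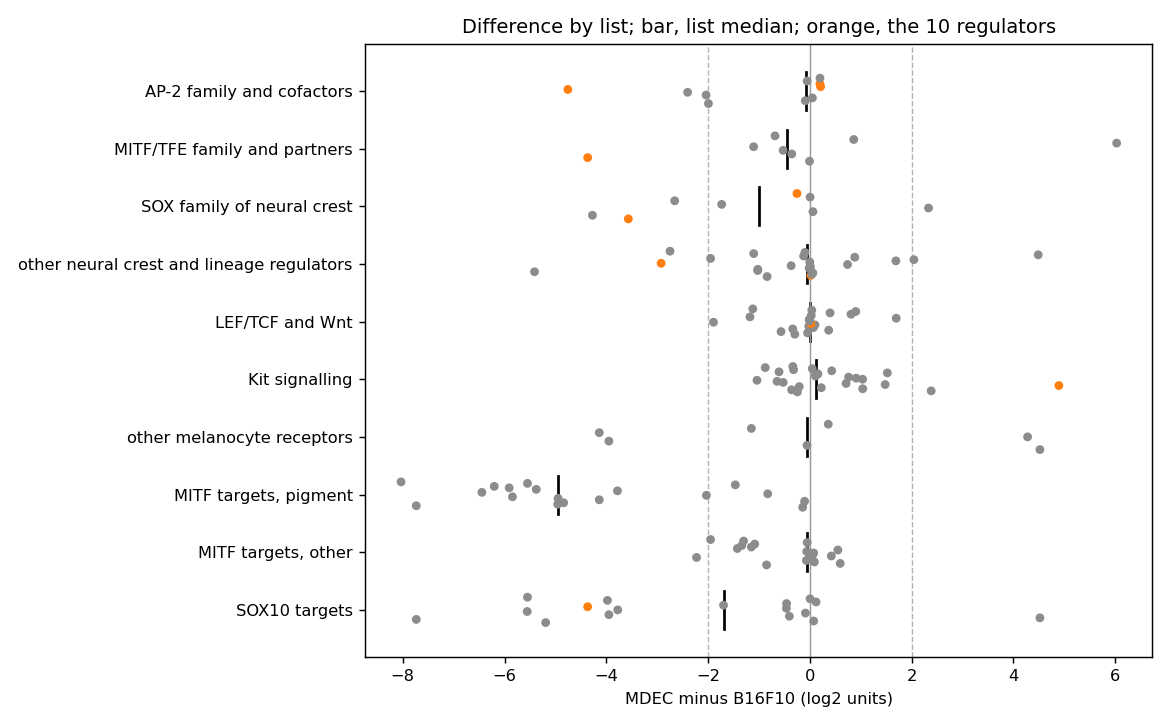
MDEC minus B16F10 in log2 units (x axis) for the measured genes of 10 lists (rows; grey points, genes; orange, the 10 regulators where listed; black bar, list median; dashed lines, 4-fold). Pigment targets of MITF lie mostly below −2 with a median of −4.95, while the lists of Kit signalling and LEF/TCF genes centre near 0.

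Relatives of the regulators also differed between the cell types by the rule of size, which 2.01% of all genes passed as lower and 2.72% as higher. In the MITF and TFE family and its partners, Tfec was 6.03 log2 units higher in MDEC, at 10.46 against 4.29 to 4.61 in B16F10, while Mitf was lower and the other 6 of 8 genes missed the rule. Tfec encodes a transcription factor closely related to MITF. Among 8 SOX genes, Sox11 (−4.27), Sox10 (−3.57) and Sox6 (−2.66) were lower in MDEC and Sox4 (2.33) was higher. Among 22 other neural crest regulators, 3 were lower, namely Id2 (−5.41), Pax3 (−2.92) and Zic2 (−2.75), and 2 were higher, the EMT factor genes Zeb1 (4.49) and Snai2 (2.05). Zeb2, the paralog of Zeb1 that melanocytes express, was at 8.44 in MDEC and 9.19 to 9.68 in B16F10. Of 20 measured LEF/TCF and Wnt genes, 0 passed the rule in MDEC, and the largest differences were −1.89 for Lgr4 and 1.70 for Sp5.

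In the comparison of PECAM1+ clones with PECAM1− samples, 0 genes passed in any of these families. Sox4 differed by 0.64 ± 0.12 (SE) with groups that did not overlap, from 7.89 to 8.21 in the PECAM1+ clones against 7.39 in parental cells and 7.29 in clone A1 (limma adjusted p = 0.351). The co-repressor gene Tle1, whose product binds LEF/TCF factors, differed by −0.77 ± 0.13, with 6.88 to 7.25 in the PECAM1+ clones, 7.92 in clone A1 and 7.68 in parental cells (limma adjusted p = 0.316). Tle4 differed by −0.66 ± 0.17 (limma adjusted p = 0.432). Against clone A1 alone, where 20.5% of all genes passed, 5 of 20 LEF/TCF and Wnt genes did (25.0%), 1 of 8 MITF and TFE genes (12.5%), 2 of 22 other neural crest regulators (9.09%) and 0 of 8 SOX genes. These shares lie on both sides of that of all genes. In the Wnt list Tle1 and Tle4 (−0.89 each), Apc (−0.49) and Gsk3b (−0.28) were lower and Wif1 (0.22) was higher, with limma adjusted p from 0.00994 to 0.0418. Tfe3 was lower (−1.10, limma adjusted p = 0.0252), and Zeb2 was higher (0.47, limma adjusted p = 0.0122), as was Pax3. Against parental cells alone 0 genes of these lists passed. Id1 and Id3 varied between clones more than between groups, with Id3 at 7.15, 9.18, 9.60 and 8.02 in clones A2 to A5, 9.73 in clone A1 and 7.45 in parental cells.

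Pigment targets of MITF were lower in MDEC as a list, whereas other MITF targets mostly missed the rule of size, which 4.73% of all genes passed. Of 18 genes on the list of pigment targets, 18 were lower in MDEC, 14 of them by the rule of size (77.8%). Their median was −4.95 beside 0.00 for all genes. The list also holds the cadherin gene Cdh1, not a pigment gene and named after its value was seen. Its difference was −0.14, with MDEC inside the B16F10 range. Tyrp1 (−8.03), Dct (−7.73), Pmel (−6.44) and Slc45a2 (−6.20) were the lowest. Of 17 measured SOX10 targets, 8 were lower, among them the connexin gene Gjc3 (−5.55) and the cadherin gene Cdh19 (−5.19), and 1, Ednrb, was higher (52.9% in either direction). Of 18 other reported MITF targets with roles in growth and metabolism, 1 was lower, the cyclin-dependent kinase gene Cdk2 (−2.23), and 0 were higher, a share of 5.56% that is near the background. Several genes, such as Tyr and Dct, stand on more than 1 of these lists. Tyr, Tyrp1, Dct, Pmel and Slc45a2 are also among the melanocyte markers used to check the labels. Their low level in MDEC is therefore not a separate result. Between the PECAM1+ clones and the PECAM1− samples, 0 genes of the 3 target lists passed, and likewise 0 against parental cells alone. Against clone A1 alone 1 of 18 pigment targets passed (Hps4, −0.51), 4 of 18 other MITF targets (Lig1, 1.90; Apex1, 1.06; Cdk4, 0.31; Rragd, −1.20) and 3 of 17 SOX10 targets (Egr2, −1.69; Mbp, 0.72; Ret, 0.10). These are 5.56%, 22.2% and 17.6% of the lists, beside 20.5% of all genes.

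Within B16F10, several pigment genes had wider ranges than the 4 regulators that were high there. The regulators departed from their B16F10 medians by at most 0.41, for Mitf in clone A1. Tyrosinase, the first enzyme of melanin synthesis, was at 10.29, 9.63, 10.84 and 10.38 in clones A2 to A5, 10.29 in clone A1 and 8.49 in parental cells. Parental cells were thus lowest for Tyr although their Mitf level was the second highest of the B16F10 arrays, and they were highest for Mc1r, at 10.88 against 9.94 to 10.45 in the PECAM1+ clones and 9.98 in clone A1. Tyr differed from parental cells by 1.79 ± 0.48 (SE) in the PECAM1+ clones, which did not pass (limma adjusted p = 0.270). Clone A3 was lowest of the 4 PECAM1+ clones for Mitf, Tyr, Dct, Pmel and Slc45a2, and A4 highest, genes picked after their values were seen. For Tyrp1 and Mc1r clone A5 was lowest, by a narrow margin over A3, and for Mcoln3 A2 was highest, by a narrow margin over A4. Oca2, a melanosomal transporter gene, was at 5.74, 5.41, 7.18 and 6.00 in A2 to A5, 7.30 in clone A1 and 6.00 in parental cells, so that A4 and A1 were highest, as for Cited1. Trpm1, a channel gene regulated by MITF, was highest in A4 (8.51) and A1 (7.80) too, with 6.53 to 7.35 in the other B16F10 arrays.

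**Figure D5:**
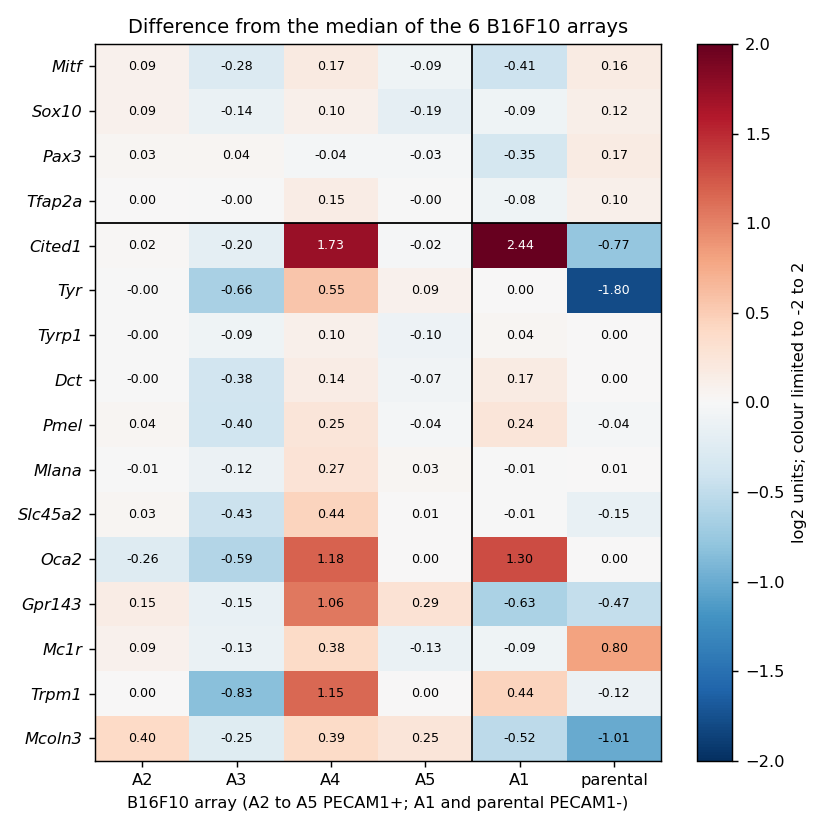
Difference of each gene from its median over the 6 B16F10 arrays, in log2 units (columns, arrays, with the PECAM1+ clones left of the line; rows, 4 regulators above the line, Cited1 and pigment genes under it; red, higher; blue, lower). The regulators stay within 0.41 of their median, while Cited1 reaches 2.44 in clone A1 and Tyr −1.80 in parental cells.

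The genes most like each regulator were sought over the 7 arrays, by Pearson's r, for regulators with a range of at least 1 log2 unit, among 4986 genes with such a range. All r values of the first 3 genes lay between 0.997 and 0.999, and since MDEC is set apart in each of them they describe mainly that array. Mitf was closest to Kbtbd8, Pole4 and Car14, Sox10 to Extl1, Dock11 and Tfap2a, and Pax3 to Pradc1, Syngr2 and Celf2. Tfap2a was closest to the pigment genes Tyrp1 and Mlana and to Klhl30, and Kit to Dnm3, Gbp9 and Myzap. Over the 6 B16F10 arrays none of the 10 regulators reached that range, the widest being Kit at 0.62, so no genes are named for them there. The median B16F10 range was 0.29 for the 10 regulators and 0.38 for all genes.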

How the data were processed

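The authors deposited log2 values for each probe set on every array. Partek is the tool in the submitters' processing notes. How probe sets were summarised and normalized is not stated there, and the log2 scale was read from the values (1.39 to 13.5). Of 35557 probe sets, 21789 had 1 gene symbol in the platform annotation, 1621 several and 12147 none; only the first kind was named, with the probe set of highest mean for each of 999 genes that had several. Groups followed the PECAM status in the labels. PECAM1+ clones were compared with PECAM1− samples by limma 3.58.1 in R 4.3.3 (eBayes with trend, two-sided, Benjamini-Hochberg over 19938 genes, threshold 0.05), and MDEC by the rule of size. The limma code was tested on simulated arrays, all drawn with the means and spread of the PECAM1+ clones. That test did not cover the difference between clone A1 and parental cells. No array was centred again. Members and lists were chosen with earlier results of these data known. All regulators were named, up to 4 genes per list with the largest difference, and the 3 most alike genes; the Sprouty and marker genes beyond these, Dusp6, Gab2, Pik3ca, Snai2, Zeb2, Pmel, Slc45a2 and Dct within B16F10, Trpm1, Pmp22, called genes beyond the 4 and Tfec's range were singled out after their values were seen. Some listed genes are not reported here. The cAMP response element and LEF/TCF motifs were added after the design was written. Without scanner files the signal above background is unknown, and precision is limited by the 7 arrays.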

Additional observations from a re-analysis of the deposited data

Results flagged for a closer look

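Among the 4 PECAM1+ clones, 1 value lay far from the other 3 for 4 of the 10 regulators, by the gap to its nearest neighbour relative to the whole range. Tfap2a was at 10.12 in clone A4, against 9.96 to 9.97 in the other 3. Tfap2b was at 4.82 and Lef1 at 5.31 in clone A5, where the other 3 clones had identical values of 4.96 and 5.41. Foxd3 was at 5.46 in clone A2, against 5.63 to 5.65. Chance marks about 1 in 20 groups of untied values, but 21.1% of all 19938 genes met the same criterion in these clones, and identical values are common. The ranges were small, from 0.09 log2 units for Lef1 to 0.19 for Foxd3. For Tfap2b and Lef1 the tie of the other 3 clones makes the gap equal to the whole range, whatever its size. Their flags therefore follow from the tie and do not show a distant value. For Foxd3 clones A4 and A5 held the same value, which narrows the range, and its part in the result was not tested.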

How the results depend on the processing

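No paired analysis was possible because the labels give no replicate number shared between the groups. Counts of called genes over all genes moved most. Against both PECAM1− samples, 2 genes were called, and 7 with quantile normalization, 6 with median centring, 5 without dim genes, 5 with robust eBayes, 1 with all probe sets and 1 with array weights. Leaving out samples gave 1 to 4089, the highest without parental cells. Against parental cells 2 became 7 with median centring, 1 with all probe sets and 0 to 1 with a clone left out. Against clone A1, 4089 became 2108 to 3526 with a clone left out (2208 without A3, 2108 without A5). For MDEC, 943 became 603 without dim genes and 2643 at 2-fold. Regulators with small, uncalled differences changed sign: Sox9 to −0.0057 (quantile) and −0.0084 (centring) against both, −0.0049 and −0.0018 against parental cells, and −0.0069 and −0.015 against clone A1, and Tfap2b to −0.0022 (centring). With a sample left out, differences from both PECAM1− samples ran from −0.19 to 0.39 for Mitf, −0.16 to 0.051 for Sox10, −0.17 to 0.35 for Pax3, −0.062 to 0.12 for Tfap2a, −0.094 to 0.14 for Tfap2b, −0.029 to 0.060 for Sox9, −0.058 to 0.0057 for Foxd3 and −0.045 to 0.28 for Kit. Against parental cells they ran from −0.012 to 0.038 for Tfap2c, −0.029 to 0.060 for Sox9, −0.058 to 0.0057 for Foxd3 and −0.16 to 0.044 for Kit, and against clone A1 from −0.029 to 0.060 for Sox9, −0.058 to 0.0057 for Foxd3 and −0.031 to 0 for Lef1. The 5 regulators past the rule in MDEC kept their direction and their place past it with quantile normalization and median centring (Kit was not among the genes left by the filter on dim genes), and Mitf was at −3.21 with its probe sets averaged. The cause was not tested.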
